A study of Homo sapiens with 18 samples.

Results

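The genes described here are *NFE2L2*, which encodes the transcription factor NRF2, its repressor *KEAP1*, and 7 genes of the antioxidant response that NRF2 controls, namely *GCLC*, *GCLM*, *TXNRD1*, *SRXN1*, *NQO1*, *HMOX1* and *OSGIN1*. They were taken by gene symbol, from a list drawn up with earlier results of these data known, and all 9 were found among the 21944 genes of the series, each listed at all 3 time points. The series is bulk RNA sequencing of human embryonic stem cell-derived pancreatic progenitors that were detached at day 19 of differentiation with accutase, reseeded on fibronectin (FN) or on the laminin isoform LN411, and collected 3, 6 or 24 h later. There were 3 samples for either matrix at every time, which makes 6 groups and 18 samples, and all of them share the cell source, the detachment and the reseeding. The sample labels name the HUES4 line, while their growth protocol names NGN3-GFP cells, derived from the SA121 line, which carry a reporter for *NEUROG3*. The paper gives the sequenced progenitors as derived from NGN3-GFP cells. The groups were set up to follow what lies between contact with LN411 and the choice of an endocrine fate.

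The value used here for each gene is its mean normalized count. It is the authors' mean of read counts scaled for library size over the samples of their fit, and it was the same at all 3 times to within a relative gap of 4.89e-07. It therefore pools FN with LN411 and all times, and it carries no spread between replicates. Values for single samples and the difference between LN411 and FN were not analysed here, and the depth of the single libraries is unknown. Levels of different genes were compared after division by the length of the gene's canonical transcript in kb, and a gene's percentile is the share of all listed genes at or below it on the same scale. The listed genes were not limited to protein-coding ones and include long non-coding genes and pseudogenes. The median gene had a mean normalized count of 297.1, or 115.5 per kb.

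In unstressed cells KEAP1 binds newly made NRF2 and, as the adaptor of a CUL3 ubiquitin ligase, sends it to the proteasome. Oxidants and electrophiles modify cysteines of KEAP1, and NRF2 then accumulates, pairs with a small MAF protein and binds antioxidant response elements near its target genes. The targets make glutathione, keep thioredoxin and peroxiredoxins reduced, and remove quinones and haem. NRF2 activity is set largely at the level of the protein, so that the *NFE2L2* transcript alone does not measure it. Pancreatic beta cells are known for low levels of several enzymes that remove hydrogen peroxide.

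The labelled cell type was checked against markers. Of 9 pancreatic progenitor markers, all were listed and 8 lay above the median gene per kb, with *GP2* the highest at a mean normalized count of 135959 and the exception *PTF1A* at 12.5. *PDX1* had a mean normalized count of 12933 and *SOX9* one of 20672. Of 3 pluripotency markers, only *LIN28A* was listed, with a mean normalized count of 10333. Of the 3 liver and gut markers, *AFP* had 26676, *CDX2* 3556 and *ALB* 639.9. Of 7 endocrine markers 4 lay above the median gene per kb, with *CHGA* the highest at 2172 per kb. Below the median were *NEUROD1*, *INS* and *GCG* at 28.5, 17.9 and 14.5 per kb. Mesenchymal *COL1A1* and *VIM* had mean normalized counts of 4091 and 6543, endothelial *PECAM1* had 11.0 per kb, and *PTPRC* of blood cells was not listed. Which cells these transcripts came from was not tested, nor was the part of any other cells in the levels below. Since the libraries are bulk RNA, a low share of expressing cells and a low level in each cell cannot be told apart for any gene below.

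*NFE2L2* had the highest level of the 9 genes per kb of canonical transcript, and the fourth on merged exons, where it had 558.4 per kb against 1609 for *TXNRD1*, 968.3 for *KEAP1* and 863.9 for *NQO1*. Its mean normalized count was 8362, which is 3419 per kb of its canonical transcript of 2446 bases and places it at the 95.4th percentile of all genes. *KEAP1* had a mean normalized count of 3460, or 1349 per kb, at the 87.5th percentile. The *NFE2L2* level per kb was thus 2.53 times that of *KEAP1*. With the merged exons of all annotated transcripts as the length, which are 14975 bases for *NFE2L2* and 3573 for *KEAP1*, the ratio was 0.577, so the order of regulator and repressor depends on the length used. *NFE2L2* lies on chromosome 2 of GRCh38 from 177218667 to 177392756 on the minus strand. Exons of *HNRNPA3* on the opposite strand cover 23.4% of its merged exon bases, and *HNRNPA3* had a mean normalized count of 17106. A long non-coding gene on the same strand, ENSG00000213963, covers 13.6%, and its mean normalized count was 141.8. Whether reads were shared with or lost to these genes was not tested. *KEAP1* (chromosome 19, 10486125 to 10503558, minus strand) shares no exon base with another annotated gene.

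**Figure D1:**
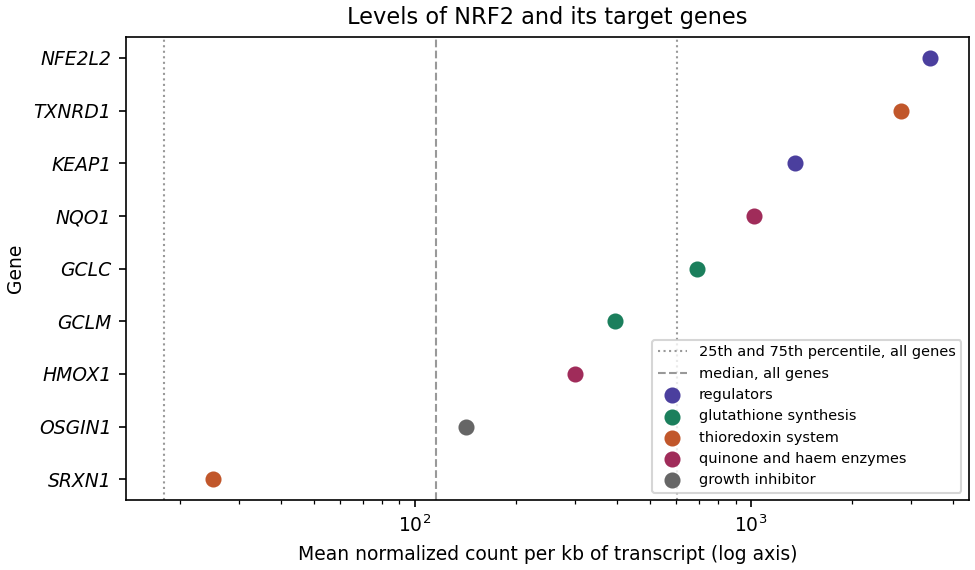
Mean normalized count per kb of canonical transcript (log axis) of the 9 genes, 1 point a gene, coloured by role. The vertical lines are the 25th, 50th and 75th percentiles of all listed genes at 17.97, 115.5 and 602.7 per kb, and each point is the authors' mean over samples, without an error. *NFE2L2*, *TXNRD1*, *KEAP1*, *NQO1* and *GCLC* lie above the upper quartile, and *SRXN1* is the only 1 of the 9 below the median on this scale.

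Glutamate-cysteine ligase carries out the rate-limiting step of glutathione synthesis, and is built from a catalytic subunit encoded by *GCLC* and a modifier subunit encoded by *GCLM*. *GCLC* had a mean normalized count of 2607, or 688.8 per kb, at the 77.4th percentile. *GCLM* had a mean normalized count of 1923, or 393.8 per kb, at the 67.5th percentile. The catalytic subunit was 1.75 times the modifier subunit per kb of canonical transcript and 0.854 times on merged exons, so that these 2 genes had no fixed order. *GCLC* (chromosome 6, 53497341 to 53616970, minus strand) shares 3.54% of its exon bases with the antisense gene *GCLC-AS1* and 6.14% with a long non-coding gene on its own strand. *GCLM* (chromosome 1, 93885199 to 93909456, minus strand) shares none.

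The thioredoxin pair held nearly the whole range of levels. *TXNRD1* encodes the cytosolic thioredoxin reductase, a selenoprotein that uses NADPH to reduce thioredoxin. It had a mean normalized count of 10797, the highest of the 9, which is 2797 per kb and the 94.3rd percentile. *SRXN1* encodes sulfiredoxin, which restores overoxidized peroxiredoxins. It had a mean normalized count of 63.6, or 25.2 per kb, at the 30.3rd percentile, and was the lowest of the 9 on each of the 3 scales. *TXNRD1* was 111.2 times *SRXN1* per kb of canonical transcript and 64.0 times on merged exons.

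The annotation at *SRXN1* bears on how its reads could be counted. *SRXN1* lies on chromosome 20 of GRCh38 from 646615 to 653200 on the minus strand and has 2 exons. A protein-coding readthrough gene on the same strand, ENSG00000270299, covers 2292 bases or 90.7% of the exon bases of *SRXN1* in GENCODE v44, and is not among the listed genes. Whether it is also in GENCODE v32, against which the authors counted, was not checked. The authors' counting with STAR keeps a read only where it overlaps a single gene. How many reads of *SRXN1* this removed was not tested, and its mean normalized count is therefore uncertain as a level. *TXNRD1* (chromosome 12, 104215779 to 104350307, plus strand) shares no exon base with another annotated gene.

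*NQO1* encodes a quinone reductase that passes 2 electrons at once and is among the most used readouts of NRF2 activity. Its mean normalized count was 2567, or 1018 per kb, at the 83.6th percentile. *HMOX1* encodes the inducible haem oxygenase, which opens haem to biliverdin, iron and carbon monoxide, and which BACH1 represses at the same elements that NRF2 binds. Its mean normalized count was 465.3, or 299.4 per kb, at the 63.0th percentile. *NQO1* was 3.40 times *HMOX1* per kb and 4.28 times on merged exons. *NQO1* (chromosome 16, 69706996 to 69726668, minus strand) shares 19.4% of its exon bases with a long non-coding gene on the opposite strand, ENSG00000261602, that is not among the listed genes. How this overlap affected the count of *NQO1* was not tested. *HMOX1* lies on chromosome 22 from 35380361 to 35394214 on the plus strand and shares no exon base with another gene.

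*OSGIN1* encodes an oxidative stress-induced growth inhibitor. Its mean normalized count was 273.6, or 142.4 per kb, at the 52.7th percentile, close to the median gene. It was at the 49.3rd percentile before division by length and at the 44.3rd on merged exons, which makes it the 1 of the 9 whose side of the median changes with the length used. *OSGIN1* (chromosome 16, 83931311 to 83966332, plus strand) shares 8.22% of its exon bases with *MLYCD* on the same strand, which had a mean normalized count of 1521. *TXNRD1* was 19.6 times *OSGIN1* per kb of canonical transcript and 32.7 times on merged exons.

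Per kb of canonical transcript, 8 of the 9 genes lay above the median of all genes, with a median of 688.8 for the 9 against 115.5 for all genes. These are counts over chosen genes without a test. Before division by length, 7 of the 9 were above the median.

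**Figure D2:**
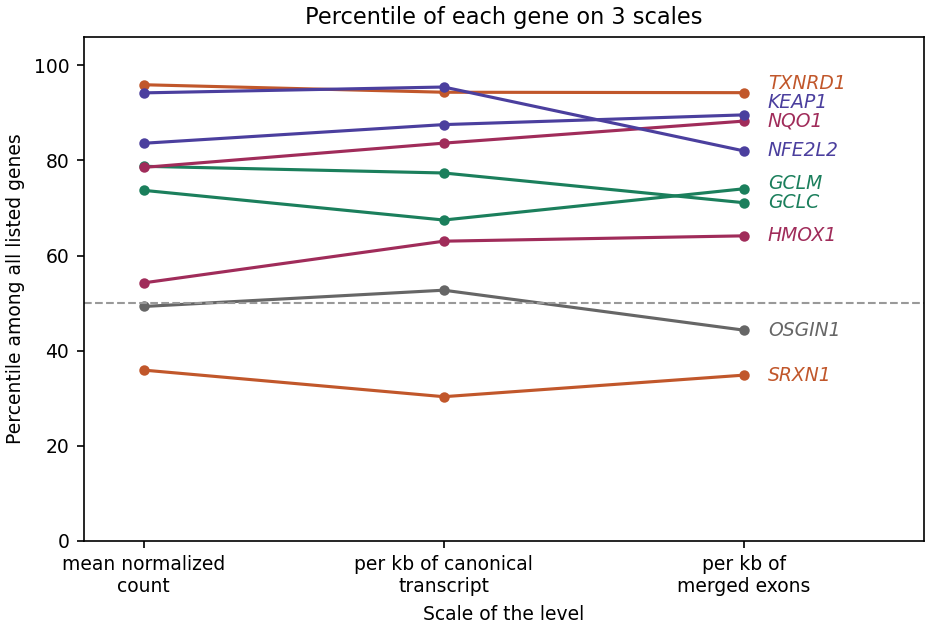
Percentile of each of the 9 genes among all listed genes (vertical axis, 0 to 100) for the mean normalized count, the count per kb of canonical transcript and the count per kb of merged exons (horizontal axis), with 1 line a gene and colours by role as in the plot of levels. The dashed line is the 50th percentile. *TXNRD1* stays between 94.2 and 95.9, *NFE2L2* moves from 95.4 to 82.0 between the last 2 scales, and *SRXN1* stays between 30.3 and 35.9.

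The other genes of the pathway were described from a list of 54 genes, all of which were listed, and 50 of them lay above the median of all genes per kb. Their median was 1511 per kb. Among 11 partners, regulators and relatives of NRF2, the highest was *NFE2L3*, a relative of *NFE2L2*, with a mean normalized count of 15218, or 4069 per kb. *NFE2L1*, another relative, had a mean normalized count of 15628, or 3230 per kb. Relative to *NFE2L2*, the level per kb was 1.19 times as high for *NFE2L3* and 0.945 times for *NFE2L1*, and on merged exons the ratios were 6.33 and 4.76. The lowest of the 11 was *BACH2* at a mean normalized count of 59.0, or 6.40 per kb, whereas *BACH1*, the repressor of *HMOX1*, had 3649, or 649.5 per kb. *CUL3*, the scaffold of the ligase that KEAP1 serves, had 6115, or 905.1 per kb. The small MAF genes *MAFF*, *MAFG* and *MAFK* had 345.3, 383.5 and 417.1 per kb, and no spread is at hand to rank them.

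The genes around glutathione had a median of 1873 per kb and those around thioredoxin one of 4130, against 688.8 for the 9 members. Before division by length the medians were closer, at 3575 and 3708 against 2567. All 11 glutathione genes lay above the median gene per kb, from *SLC7A11*, part of the cystine importer, at 316.1 per kb to the glutathione transferase *GSTP1* at 32322. *GPX4*, the glutathione peroxidase that reduces lipid peroxides, had 14755 per kb. Of 8 thioredoxin genes, the peroxiredoxin *PRDX1* was highest at 23739 per kb and *TXNRD3* lowest at 184.0. The cytosolic *TXNRD1* was 10.1 times the mitochondrial reductase *TXNRD2* per kb and 15.2 times *TXNRD3*, and on merged exons 24.4 and 11.3 times. Among 6 genes that supply NADPH, *PGD* of the pentose phosphate pathway was highest at 6443 per kb and malic enzyme *ME1* lowest at 158.7.

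In the quinone, haem and efflux lists, several genes are relatives of a member. *NQO2*, the relative of *NQO1* that uses another cosubstrate, had 5866 per kb, which is 5.76 times *NQO1* and 3.00 times on merged exons. *AKR1C1*, an aldo-keto reductase, was the lowest of 8 in that list at 59.3 per kb. It has close relatives of nearly the same sequence, so its reads may be split among them. *HMOX1* was 1.16 times the constitutive *HMOX2* per kb, with mean normalized counts of 465.3 and 430.6. The ferritin light chain *FTL* was the highest gene of the pathway at a mean normalized count of 106268, or 122007 per kb, and ferritin genes have processed copies in the genome that can share their reads. Of 4 efflux pumps, 2 lay above the median gene per kb, *ABCC4* at 886.5 and *ABCC1* at 115.8. The level of *ABCC1* is next to the median of 115.5. The lowest pump was *ABCC2* at 12.0 per kb.

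**Figure D3:**
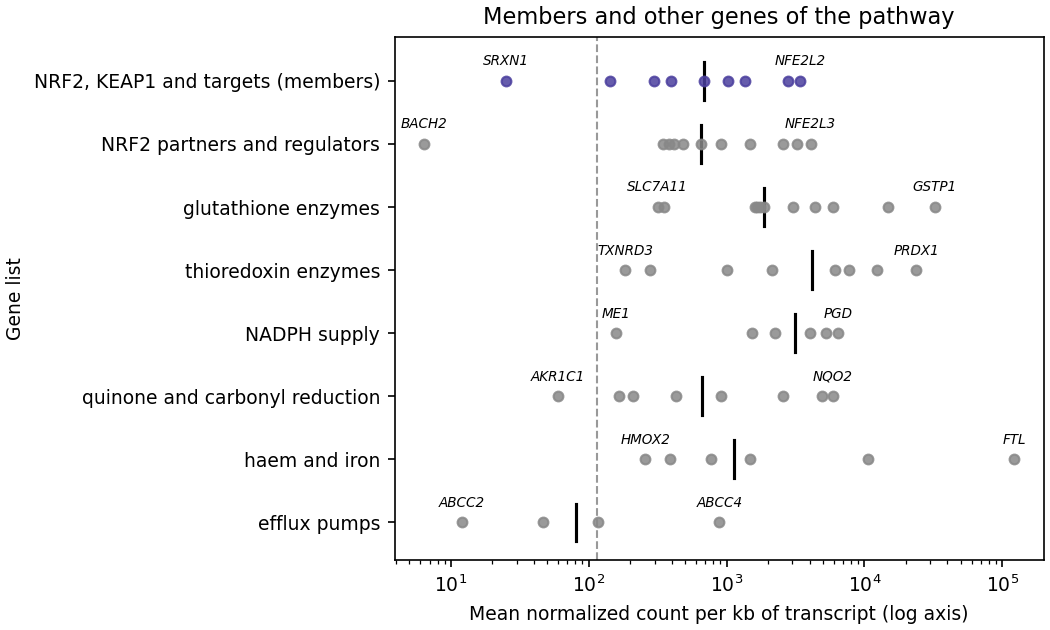
Mean normalized count per kb of canonical transcript (horizontal log axis) for the 9 members and 7 lists of other pathway genes (vertical axis), 1 point a gene, with the lowest and highest gene of each list named. Short black lines are list medians and the dashed line is the median of all genes at 115.5 per kb. On this scale the members reach from *SRXN1* at 25.2 to *NFE2L2* at 3419, while *GSTP1*, *PRDX1* and *FTL* lie above them.

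The promoters were searched for the core of the antioxidant response element, since it is what NRF2 binds. RefSeq windows of GRCh38.p14, from 250 bases before to 50 bases after a start given by RefSeq, were found for 8 of the 9 genes as 11 windows, and *HMOX1* was not among them. The motif TGACNNNGC was sought on both strands. It was present in 13.3% of all 35116 windows and in 16.1% of all 27305 RefSeq genes with a window. Of the 8 members, 3 held it, *GCLM*, *TXNRD1* and *KEAP1*, in 4 windows. Of 41 other pathway genes with a window, 12 held it, *GSTP1* and *GPX2* among them. The AP-1 motif TGANTCA, which can overlap with it, was in 7.71% of windows and 9.37% of genes, and in the window of 1 member, *OSGIN1*. A match of letters is a description and no binding was measured here, and elements farther from the start lie outside the windows.

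The matches to the letters TGACNNNGC in the windows of the members are printed, apart from a further *TXNRD1* match given below. Each is given with 10 bases on either side in lower case, read in the direction in which the motif in capitals runs from 5′ to 3′, and the coordinates are those of the motif alone. Distances are counted from the RefSeq start on which the window is built, which can lie within the GENCODE gene whose ends are given above. The RefSeq start of *GCLM* is 93909430, which is 26 bases inside the GENCODE gene. Its match lies 34 to 26 bases before that start, at chr1:93909456-93909464 on the plus strand, opposite to the gene, and its nearest base is the first base of the GENCODE gene. The first *TXNRD1* window starts where the GENCODE gene does, and has a match 99 to 91 bases before, at chr12:104215680-104215688 on the plus strand. The second *TXNRD1* window is built on a start 71253 bases inside the gene, and its match, 102 to 94 bases before that start, lies at chr12:104286930-104286938 on the minus strand. The second *KEAP1* window is built on a start 787 bases inside the gene. Its matches lie 54 to 46 bases before that start, at chr19:10502817-10502825 on the minus strand, and 31 to 23 bases before it, at chr19:10502794-10502802 on the plus strand. The matches in these second windows of *TXNRD1* and *KEAP1* thus lie within the annotated genes, in exons of other transcripts and outside those of the canonical transcript.
GCLM: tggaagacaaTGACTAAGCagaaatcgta
TXNRD1, first window: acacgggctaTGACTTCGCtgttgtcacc
TXNRD1, second window: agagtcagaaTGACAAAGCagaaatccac
KEAP1, plus strand: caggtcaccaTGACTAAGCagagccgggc
KEAP1, minus strand: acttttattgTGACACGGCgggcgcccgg

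The 9 capital letters of the *GCLM* match and of the *KEAP1* match on the plus strand are the same, TGACTAAGC. The first *TXNRD1* window has a further match that reaches the first base of the gene and is not printed. With A or G required before the motif, the same 3 of 8 members held it against 8.41% of all genes (6.88% of windows), and within the bases before the start alone the 3 held it against 13.2% of genes (10.9% of windows). These 3 members had levels of 393.8, 2797 and 1349 per kb, and the 5 others with a window ranged from 25.2 to 3419, so the members with and without the motif overlapped in level.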

How the data were processed

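Poly(A) RNA of 18 samples in 6 groups of 3 was sequenced. The authors aligned reads to GRCh38.p13 with STAR, counted reads per gene against GENCODE v32 and normalized with DESeq2. The submitters' processing notes name STAR 2.7.2d and DESeq2 1.34.0, and whether counting used the strand is not given in the sources used here. The signal used is the authors' deposited mean of normalized counts over samples. The authors' table also holds 5 columns of their own comparisons of LN411 with FN at each time (log2 fold change, standard error, statistic, p-value and adjusted p-value), and these were not used. The count test of LN411 against FN that had been planned needs values per sample and was not run.

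From these means, levels per kb and percentiles were computed with Python 3.11.15, numpy 2.4.6 and pandas 2.3.3. Lengths, positions and overlaps came from GENCODE v44 on GRCh38, the same assembly, with the Ensembl canonical transcript found for 99.6% of genes. The overlaps were not checked in GENCODE v32, and their effect on the counts was not tested. Promoter windows came from RefSeq (GRCh38.p14), and the 11 of the members were identical to the hg38 sequence. The search for TGACNNNGC was tested on simulated sequences of A and T with the motif planted in them. Such sequences cannot hold the motif by chance, so false matches were not tested. The AP-1 motif and the other motif settings were not tested in this way. The sum of mean normalized counts over all listed genes was 53217583, and the depth of single libraries is unknown, so no error could be given. All 9 members and, in each pathway list, the genes with the highest and lowest level are named, and others were chosen after their values were seen. The members and lists were chosen with earlier results of these data known. Alternatives were other sets of reference genes, lengths and motif definitions.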

Additional observations from a re-analysis of the deposited data

How the results depend on the processing

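Of the 9 members, 7 lay above the median gene by mean normalized count, 6 with only genes listed at all 3 times or only the 19329 genes whose mean reached 10 as the reference, 8 per kb of canonical transcript, and 7 per kb of merged exons, a length added after the data were examined. For the 54 other pathway genes the counts were 50, 44, 44, 50 and 48 in the same order. The percentile of *HMOX1* went from the 54.2nd percentile to the 46.2nd among genes listed at all 3 times and to the 48.1st among those whose mean reached 10, since fewer low genes are then in the reference. The same 3 members held the motif under each definition tried, while its share of all windows was 13.3%, 6.88% with A or G before it and 10.9% before the gene start only. No paired analysis was possible because the means used pool all samples and carry no replicate number. For the same reason the count model, its other normalization, its filter on low counts and the fits without single replicates were not run. The means limit what can be said, as no difference between genes could be set against a spread between replicates.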
